A study of Homo sapiens with 18 samples.

Results

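The genes described here carry names of long noncoding RNAs, were measured in a pancreatic cancer cell line and were chosen by name and by level: rows of the deposited table whose symbol is SNHG or LINC followed by digits, ends in -AS and a digit, or is GAS5, MALAT1, NEAT1, EPB41L4A-AS1 or ZFAS1, with a mean of at least 10 normalized counts over the 18 libraries. Of 26485 rows, 1884 matched these names, and 348 of the 13096 genes that reached a mean of 10 were members. They comprised 21 host genes of small nucleolar RNAs (the SNHG genes, GAS5, ZFAS1 and EPB41L4A-AS1), 96 LINC genes, 229 antisense-named genes, MALAT1 and NEAT1. RefSeq gives 13 of the 348 as protein coding, among them LINC00116 (now MTLN). The mean level chose the members, so that level is a description. The members just inside the limit were IDI2-AS1 at 10.0, DPP10-AS1 at 10.0 and LINC00894 at 10.1 normalized counts, and those just outside were LINC01530 at 9.96, SRRM2-AS1 at 9.94 and BCDIN3D-AS1 at 9.90. The limit took in 20 members that would have fallen under it without the group where they were highest, none of them a snoRNA host. In all, 142 members, 19 of the hosts among them, had a mean of 50 or more.

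The libraries came from L3.6pl, an established human pancreatic cancer line, as parental cells (Par) or as a gemcitabine-resistant derivative (GemR). GemR was kept in 64 nM gemcitabine, a cytidine analogue used against this cancer, so that resistance and exposure to the drug cannot be told apart. All cells were transfected for 48 h with a control siRNA (siCont) or, in GemR only, with an siRNA against STIM1 (siSTIM1), and for the last 3 h received DMSO vehicle or 500 nM thapsigargin. The 6 groups, each of 3 libraries, were therefore Par siCont, GemR siCont and GemR siSTIM1, each with vehicle or with thapsigargin. GemR is a single derivative, and the labels do not say whether the libraries of a group came from separate cultures, so p-values measure the spread between these libraries.

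Small nucleolar RNAs (snoRNAs) guide the chemical modification and cleavage of ribosomal and spliceosomal RNAs, and most are cut out of the introns of longer genes. In an SNHG gene the introns carry the snoRNAs while the spliced exons code for no conserved protein; several of these exonic transcripts begin with the pyrimidine tract of ribosomal protein mRNAs, are loaded onto ribosomes and are then removed by nonsense-mediated decay, so that their level depends on translation as well as on transcription. MALAT1 and NEAT1 are long nuclear RNAs that lie next to each other on chromosome 11; MALAT1 collects in nuclear speckles and NEAT1 is the scaffold of paraspeckles. Thapsigargin blocks the pump that fills the endoplasmic reticulum with calcium and is a standard trigger of the unfolded protein response, and STIM1 is the sensor that opens calcium channels of the plasma membrane when that store empties.

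The knocked-down gene followed its labels. STIM1 stood at 457 ± 20.6 normalized counts (SD, n = 3) in Par with vehicle, at 5890 ± 793 in GemR siCont with vehicle and at 382 in GemR siSTIM1 with vehicle, a log2 difference of 3.68 between GemR and Par and of -3.93 ± 0.10 (SE) between siSTIM1 and siCont. Recovered reads ranged from 8922439 to 16519239 per library. Members took 0.393 to 0.571% of the normalized counts of a library and snoRNA hosts 0.109 to 0.163%. Epithelial markers were present in every library (6 of 6 tested, summed 77125 to 109242 normalized counts), whereas fibroblast markers summed to 0 to 17.0 and 0 of 5 passed the level limit. Endothelial markers summed to 114 to 282 (2 of 3 tested) and immune markers to 73.2 to 177 (1 of 5 tested, CD68). In bulk RNA, fewer cells of a type and less RNA per cell cannot be told apart. In GemR siCont with vehicle, replicate 1 stood apart from its group: its deviation from the group followed transcript length over 12803 genes (Spearman's rho -0.507, across genes), with a median deviation of the snoRNA hosts of 0.366 on the log2 scale. A weaker deviation of the same kind marked GemR siSTIM1 thapsigargin replicate 1 (rho -0.429, host median 0.167). The part of these deviations in the results was not tested, so the main host results that use replicate 1 of GemR siCont with vehicle are also given without it. The strand setting of the counting is not given in the sources used here, and reads from a gene and from an overlapping antisense partner cannot be told apart.

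In RefSeq each of the 21 hosts held at least 1 snoRNA or its Cajal-body relative, a scaRNA. GAS5 held 11, among them SNORD44, SNORD47 and SNORD74; SNHG1 held 8, SNORD22 and SNORD25 to SNORD31; SNHG12 and SNHG17 held 4 each and ZFAS1 and SNHG16 held 3 each. EPB41L4A-AS1 held SNORA13, SNHG8 held SNORA24, and SNHG20 and SNHG10 each held a scaRNA, SCARNA16 and SCARNA13. Some antisense and LINC members also held snoRNAs: LRRC75A-AS1, which RefSeq names SNHG29, THAP9-AS1 and LINC00888 among them. The polyadenylated libraries measured the spliced host transcripts and not the snoRNAs.

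The start of a host transcript is where its pyrimidine tract would lie, and the windows below show it for 10 of the hosts. Each window runs from 20 bases before the RefSeq start to the base 30 of the transcript (GRCh38.p14), written 5′ to 3′ on the strand of the gene, with capitals marking the unbroken run of C and T that begins at the start. The first 7 hosts rose with thapsigargin in Par, and the last 3 did not.
EPB41L4A-AS1, chr5:112160506-112160555, plus strand: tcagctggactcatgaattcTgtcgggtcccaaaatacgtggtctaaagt
SNHG8, chr4:118278742-118278791, plus strand: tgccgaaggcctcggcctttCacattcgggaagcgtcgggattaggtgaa
ZFAS1, chr20:49278622-49278671, plus strand: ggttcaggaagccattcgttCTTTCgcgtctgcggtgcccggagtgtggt
GAS5, chr1:173869016-173869065, minus strand: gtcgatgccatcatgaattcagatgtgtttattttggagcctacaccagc
SNHG5, chr6:85678704-85678753, minus strand: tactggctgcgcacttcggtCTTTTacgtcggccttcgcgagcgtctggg
SNHG12, chr1:28581844-28581893, minus strand: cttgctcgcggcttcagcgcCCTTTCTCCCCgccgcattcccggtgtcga
SNHG1, chr11:62855856-62855905, minus strand: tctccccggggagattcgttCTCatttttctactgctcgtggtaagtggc
SNHG10, chr14:95534843-95534892, minus strand: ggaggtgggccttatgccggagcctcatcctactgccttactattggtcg
SNHG4, chr5:139274081-139274130, plus strand: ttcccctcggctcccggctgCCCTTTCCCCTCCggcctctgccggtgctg
SNHG19, chr16:2155329-2155378, minus strand: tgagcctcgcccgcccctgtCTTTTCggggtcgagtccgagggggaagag
A start with C and at least 4 further C or T was found in 5 of the 17 hosts with a promoter in the table (29.4%), in 59.5% of 79 ribosomal protein promoters, in 4.07% of all 35116 promoters and in 2.56% of the 313 promoters of other members. Of the 10 hosts shown, ZFAS1, SNHG5, SNHG12, SNHG4 and SNHG19 had such a start. With thapsigargin in Par, ZFAS1, SNHG5 and SNHG12 rose, SNHG4 fell and SNHG19 was not called. Of the hosts shown without such a start, EPB41L4A-AS1, SNHG8, GAS5 and SNHG1 rose and SNHG10 fell. Whether the tract bears on these changes was not tested. RefSeq starts differ from the gene ends in GENCODE 29 for several hosts, GAS5, SNHG8, ZFAS1, SNHG1 and SNHG12 among them, and a window read from one annotated start shows only that position.

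Levels between genes are compared per kilobase of exon. In Par with vehicle, SNHG6, SNHG1 and SNHG8 were the most abundant hosts, at 1027 ± 64.5, 989 ± 43.5 and 956 ± 100 normalized counts per kilobase (SD, n = 3), and these 3 lay within their spread of each other. ZFAS1 at 652 ± 40.1 and GAS5 at 558 ± 25.0 followed SNHG19 at 775 ± 69.1. EPB41L4A-AS1 at 60.1 ± 2.62 and SNHG20 at 25.2 ± 3.01 were among the least abundant, SNHG20 being the lowest of the hosts. On the same scale MALAT1 stood at 128 ± 7.73 and NEAT1 at 79.5 ± 1.94. How fully the polyadenylated libraries captured these 2 nuclear RNAs was not tested, so the values do not rank them against the hosts.

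The first comparison asked how 3 h of thapsigargin changed the hosts in Par cells. Here 7 of 21 hosts rose and 2 fell, against 20.5% of all tested genes that rose and 19.7% that fell (limma on log2 of the normalized count plus 1, adjusted p below 0.05 over all genes). The median log2 change of the 21 hosts was 0.17. EPB41L4A-AS1, host of SNORA13 and lying on chr5:112160526-112164276 with 1659 bases shared with exons of EPB41L4A on the other strand, stood at 208, 203 and 191 normalized counts with vehicle and at 512, 464 and 516 with thapsigargin. SNHG8, at chr4:118278709-118279823, gave 924, 947 and 776 with vehicle and 1909, 1959 and 1852 with thapsigargin. In both genes the lowest treated library lay far above the highest vehicle library. The log2 fold change was 1.30 ± 0.15 (SE, adjusted p = 1.3e-06) for EPB41L4A-AS1 and 1.12 ± 0.15 (adjusted p = 7.4e-06) for SNHG8. The change of EPB41L4A is not reported here. The part of reads from the shared bases in the values of EPB41L4A-AS1 was not tested in any comparison.

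ZFAS1, at chr20:49278178-49295738, gave 1424, 1565 and 1397 normalized counts in Par with vehicle and 2518, 2495 and 2562 with thapsigargin. GAS5, at chr1:173863900-173868882 and named for its accumulation in growth-arrested cells, gave 2057, 2100 and 1926 against 3209, 3196 and 3283. SNHG1, at chr11:62851988-62855914, gave 3667, 3895 and 3578 against 5039, 5102 and 5066. All treated libraries of these 3 hosts were above all vehicle libraries, and the treated replicates were close to each other. The log2 fold changes were 0.79 ± 0.12 for ZFAS1, 0.67 ± 0.11 for GAS5 and 0.45 ± 0.09 for SNHG1. SNHG5 and SNHG12, hosts of SNORD50A and SNORD50B and of a group that includes SNORD99, rose by 0.65 ± 0.15 and 0.57 ± 0.12. The 2 hosts that fell were SNHG10, at 187, 172 and 154 with vehicle and 89.7, 101 and 120 with thapsigargin (-0.72 ± 0.20), and SNHG4, at 181, 174 and 212 against 132, 120 and 147 (-0.50 ± 0.14). None of these 9 calls was lost under any alternative run. The estimate of spread was shared by all groups, and without the 2 libraries that follow transcript length 10 hosts rose and 5 fell. In that run 52.6% of all genes were called, against 40.1% over all 18 libraries.

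**Figure D1:**
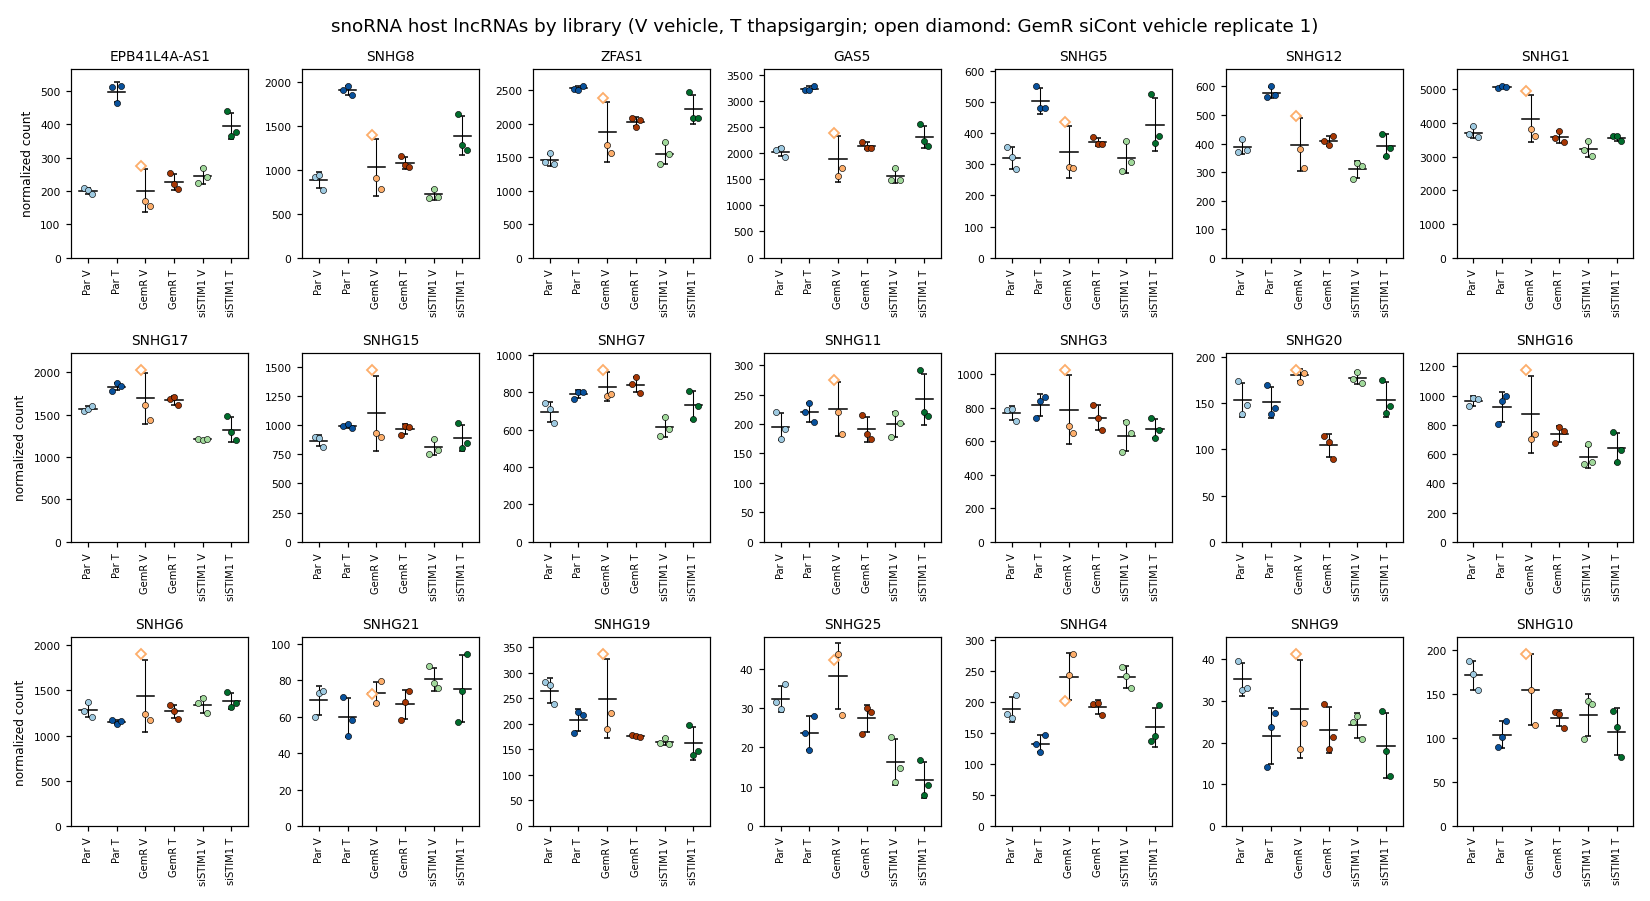
Normalized counts (vertical axes, from 0) of the 21 snoRNA hosts in each of the 18 libraries by group (points, libraries; horizontal bars, group means with SD, n = 3; open diamond, GemR siCont vehicle replicate 1). In Par the thapsigargin libraries of EPB41L4A-AS1 (464 to 516) lie above all vehicle libraries (191 to 208), and replicate 1 of GemR siCont with vehicle is the highest point of its group for SNHG8, ZFAS1 and GAS5.

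In GemR siCont cells the same treatment was followed by no host rise: 0 of 21 hosts rose and 2 fell, where 17.9% of all genes rose and 15.8% fell. The hosts' median log2 change was -0.15, and 0.07 without GemR siCont vehicle replicate 1. SNHG20, host of SCARNA16 at chr17:77086716-77099902, gave 186, 173 and 183 normalized counts with vehicle and 115, 108 and 90.0 with thapsigargin, with no overlap (-0.79 ± 0.12, adjusted p = 4.7e-05). SNHG19 stood at 336, 190 and 221 against 178, 177 and 174 (-0.45 ± 0.16, adjusted p = 0.039). That call was lost without vehicle replicate 1 (adjusted p = 0.255) and without each of the thapsigargin replicates (adjusted p = 0.0803, 0.0813 and 0.0934).

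The counts in GemR siCont depended on vehicle replicate 1. EPB41L4A-AS1 stood at 275, 171 and 156 with vehicle and at 255, 222 and 206 with thapsigargin. SNHG8 stood at 1400, 905 and 786 against 1159, 1053 and 1029, and ZFAS1 at 2380, 1682 and 1558 against 2083, 1947 and 2059. In all 3 hosts vehicle replicate 1 was above every treated library, and the other 2 vehicle libraries were below every treated library. Without that replicate 5 hosts rose and 2 fell: EPB41L4A-AS1 by 0.47 ± 0.11 (adjusted p = 0.0024), GAS5 by 0.38 ± 0.08 (0.00037), SNHG5 by 0.36 ± 0.13 (0.045), SNHG8 by 0.36 ± 0.11 (0.012) and ZFAS1 by 0.33 ± 0.08 (0.0037), with SNHG20 at -0.77 and SNHG4 at -0.44 (0.02). The share of all genes called without that replicate alone is not given, here or in later comparisons. Leaving it out also changes the shared estimate of spread, so those counts cannot be set against the shares over all 18 libraries. With both libraries that follow length left out, 6 hosts rose and 2 fell. In that run 35.5% of all genes were called, against 33.6% over all 18 libraries.

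In GemR siSTIM1 cells, 4 of 21 hosts rose and 1 fell, against 12.5% and 11.9% of all genes, and the hosts' median log2 change was 0.14 (0.04 without both libraries that follow length). SNHG8 gave 680, 787 and 694 normalized counts with vehicle and 1643, 1289 and 1231 with thapsigargin (0.94 on the log2 scale). EPB41L4A-AS1 gave 223, 270 and 242 against 439, 366 and 378 (0.68). In both genes all treated libraries were above all vehicle libraries. GAS5 rose by 0.57 and ZFAS1 by 0.51, and SNHG4, host of SNORA74A, was the host that fell (-0.61). None of these 5 calls was lost under any alternative run. The count was 8 (7 higher, 1 lower) without siSTIM1 thapsigargin replicate 2, and 6 (5 higher, 1 lower) without both libraries that follow length. In the latter run 29.1% of all genes were called, against 24.3% over all 18 libraries.

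**Figure D2:**
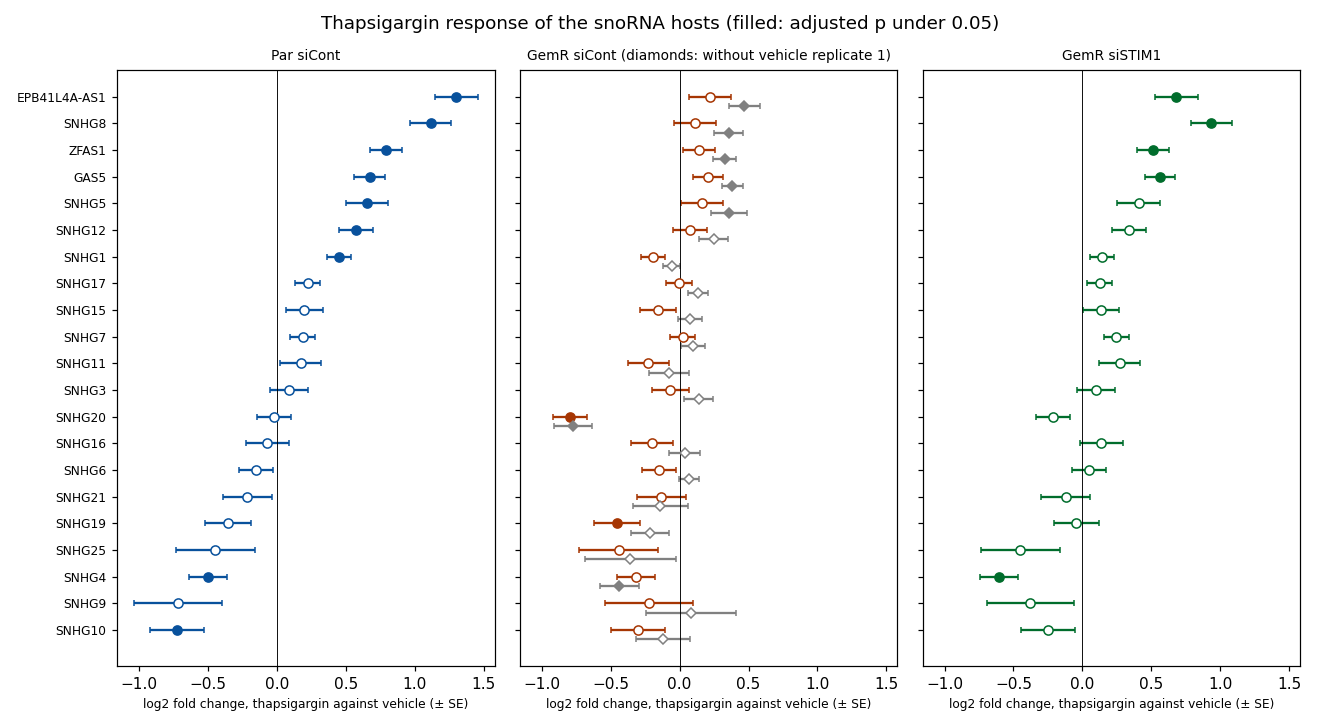
Log2 fold change with thapsigargin for each of the 21 snoRNA hosts in Par siCont, GemR siCont and GemR siSTIM1 (points, estimates, filled where the adjusted p was below 0.05; bars, SE by limma; grey diamonds, GemR siCont without vehicle replicate 1). EPB41L4A-AS1 and SNHG8 are at 1.30 and 1.12 in Par, and at 0.68 and 0.94 in GemR siSTIM1.

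The difference between the responses was tested directly. The thapsigargin response was lower in GemR siCont than in Par for 6 of 21 hosts and higher for 0, where 7.66% of all genes were lower and 7.14% higher. The 6 hosts were EPB41L4A-AS1 (-1.08 ± 0.22 on the log2 scale, adjusted p = 0.0017), SNHG8 (-1.0 ± 0.21, 0.0027), SNHG20 (-0.77 ± 0.18, 0.0047), ZFAS1 (-0.65 ± 0.16, 0.01), SNHG1 (-0.64 ± 0.12, 0.0011) and GAS5 (-0.47 ± 0.15, 0.048). The same 6 hosts were called without GemR siCont vehicle replicate 1, with smaller differences: EPB41L4A-AS1 at -0.83 (adjusted p = 0.00033), SNHG8 at -0.76 (0.00044), SNHG20 at -0.75 (0.0057), ZFAS1 at -0.46 (0.004), SNHG1 at -0.51 (0.00011) and GAS5 at -0.29 (0.044). With both libraries that follow length left out, 6 hosts were lower and 0 higher. In that run 29.4% of all genes were called, against 14.8% over all 18 libraries. The GAS5 difference was lost without any 1 of 9 other libraries: each of the 6 Par libraries and each of the 3 GemR siCont thapsigargin libraries (adjusted p from 0.0639 to 0.111). It was also lost by edgeR (adjusted p = 0.0537) and by limma after median centring (0.0543) or quantile normalization (0.0816).

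Between GemR siSTIM1 and GemR siCont, 1 of 21 hosts had a higher thapsigargin response and 0 a lower one, against 1.5% and 2.9% of all genes. This was SNHG8 (0.82 ± 0.21, adjusted p = 0.032; 0.58 without GemR siCont vehicle replicate 1, adjusted p = 0.018). The call was lost without any 1 of 6 libraries: each GemR siCont thapsigargin replicate, siSTIM1 vehicle replicates 1 and 3 and siSTIM1 thapsigargin replicate 1 (adjusted p from 0.0506 to 0.0892). This contrast and the preceding one share the GemR siCont libraries.

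With vehicle, GemR and Par differed in few hosts: 2 of 21 were higher in GemR and 0 lower, against 18.1% and 20.1% of all genes. ZFAS1 was higher by 0.33 (adjusted p = 0.029) and SNHG7 by 0.26 (0.031). Both calls were lost without GemR siCont vehicle replicate 1 (0.165 and 0.121) and without Par vehicle replicate 3 (0.0943 and 0.156). For 1 of the 2, the call was also lost without Par vehicle replicate 1 (ZFAS1, 0.0778) or 2 (SNHG7, 0.0534). Without GemR siCont vehicle replicate 1, SNHG4 was higher (0.47), and GAS5 (-0.31), SNHG16 (-0.42), SNHG19 (-0.37) and EPB41L4A-AS1 (-0.30) were lower. This makes 1 higher and 4 lower, and the hosts' median went from 0.09 to -0.06. With both libraries that follow length left out, 1 host was higher and 4 lower. In that run 42.6% of all genes were called, against 38.2% over all 18 libraries. With 1 library fewer the count ranged from 1 to 5: leaving out any of the Par vehicle replicates gave 1 call, and leaving out GemR siCont vehicle replicate 3 gave 4, all higher.

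With thapsigargin, 8 of 21 hosts were lower in GemR than in Par and 1 was higher, against 25% and 23.2% of all genes, with a median of -0.21. The largest differences were EPB41L4A-AS1 (-1.13), SNHG8 (-0.82) and GAS5 (-0.60), followed by SNHG20 (-0.53), SNHG12 (-0.50), SNHG1 (-0.50), SNHG5 (-0.43) and ZFAS1 (-0.32). SNHG4 was the host that was higher (0.53), at 197, 199 and 180 normalized counts in GemR against 132, 120 and 147 in Par. The SNHG5 call was lost without Par thapsigargin replicate 1 (adjusted p = 0.102) and without GemR replicate 2 (0.0679) or 3 (0.0645), and the ZFAS1 call was lost without any 1 of the 6 libraries (up to 0.0959). None of the other 7 calls was lost with a library left out.

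The siRNA against STIM1 was followed by lower host levels with vehicle: 9 of 21 hosts were lower than with siCont and 0 higher, against 21.1% and 20.9% of all genes, and the hosts' median difference was -0.28 on the log2 scale (-0.09 without GemR siCont vehicle replicate 1). SNHG25, host of SNORD104 and one of the 2 hosts with a mean under 50, gave 42.3, 43.8 and 28.4 normalized counts with siCont and 22.8, 11.2 and 14.9 with siSTIM1 (-1.21). SNHG16, host of SNORD1A to SNORD1C, gave 1175, 701 and 738 against 530, 668 and 545 (-0.55). SNHG17, host of the SNORA71 family, gave 2029, 1614 and 1439 against 1212, 1207 and 1216 (-0.47). The siSTIM1 libraries of these 3 hosts were all below the siCont libraries, and siCont replicate 1 was the highest library for SNHG16 and SNHG17. The others were SNHG19 (-0.55), SNHG8 (-0.47), SNHG7 (-0.43), SNHG15 (-0.41), SNHG1 (-0.34) and SNHG12 (-0.33). In the same comparison the markers PECAM1 (-0.64), CDH5 (-1.33) and CD68 (-0.51), all at low counts, were lower, and their part in the result was not tested.

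With both libraries that follow length left out, 1 host was higher with siSTIM1 and vehicle and 8 lower. In that run 40.3% of all genes were called, against 42.0% over all 18 libraries. Without GemR siCont vehicle replicate 1, 5 hosts stayed lower with siSTIM1, namely SNHG25 (-1.13), SNHG7 (-0.36), SNHG17 (-0.33), SNHG16 (-0.32) and SNHG1 (-0.21). The calls of SNHG12 (adjusted p = 0.251), SNHG15 (0.105), SNHG8 (0.0971) and SNHG19 (0.0792) were lost, and EPB41L4A-AS1 was higher (0.58, adjusted p = 0.00035). Leaving out siSTIM1 vehicle replicate 1 or 3 also ended the calls of SNHG12, SNHG15 and SNHG8 (adjusted p from 0.0542 to 0.167), and leaving out siCont vehicle replicate 2 that of SNHG12 (0.0572). With thapsigargin, 2 of 21 hosts were higher with siSTIM1 and 2 lower, against 17.7% and 18.9% of all genes. EPB41L4A-AS1 was higher by 0.79 and SNHG20, at 175, 139 and 147 against 115, 108 and 90.0, by 0.56, while SNHG25 was lower by -1.22 and SNHG17 by -0.34. The SNHG17 call was lost without siSTIM1 thapsigargin replicate 3 (adjusted p = 0.0522), and without both libraries that follow length 3 hosts were higher and 6 lower. In the run without both, 46.2% of all genes were called, against 36.6% over all 18 libraries. Without GemR siCont vehicle replicate 1, which enters this contrast only through the shared estimate of spread, 4 hosts were higher and 3 lower.

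**Figure D3:**
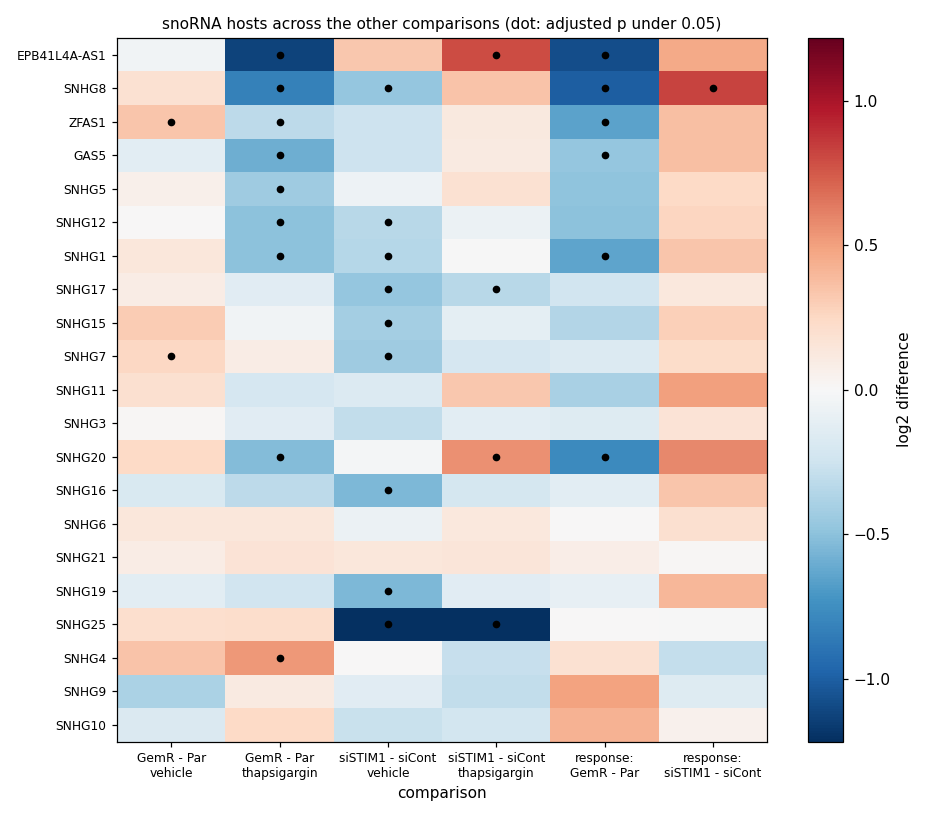
Log2 difference of the 21 snoRNA hosts (rows) in the comparisons other than the thapsigargin responses themselves (columns; red, higher; blue, lower; dots, adjusted p below 0.05 by limma). The column of the response difference between GemR siCont and Par holds 6 dots, all on negative values, and the column of siSTIM1 against siCont with vehicle holds 9, all on negative values.

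Genes that share the hosts' biology did not all move with them. Of 81 ribosomal protein genes tested, as a class known for the pyrimidine start, 1 rose and 4 fell with thapsigargin in Par (median -0.12). That was 1.23% and 4.94%, against 20.5% and 19.7% of all genes. In GemR siCont 1 rose and 3 fell (median -0.14), 1.23% and 3.70%, against 17.9% and 15.8% of all genes. None was called in GemR siSTIM1 (median 0.10), where 12.5% of all genes rose and 11.9% fell. Without GemR siCont vehicle replicate 1, 2 rose and 15 fell in Par, and in GemR siCont 3 rose and 0 fell, with the median at 0.05. That replicate enters the Par comparison only through the shared estimate of spread, and the Par median stayed at -0.12. With siSTIM1 against siCont and vehicle, 50 of the 81 were lower and 0 higher (median -0.35) in the comparison in which 9 hosts were also lower. That was 61.7% lower, against 21.1% of all genes. Without that replicate 21 of the 81 were lower and 0 higher (-0.15), beside the 5 hosts given above. Of 27 protein-coding snoRNA hosts tested, 7 rose and 8 fell in Par, 25.9% and 29.6%, against 20.5% and 19.7% of all genes. TAF1D (0.75), RABGGTB (0.64) and EIF4A2 (0.56), a translation initiation helicase, were among those that rose. The chaperone HSPA8 (-0.88) was among those that fell. For these coding hosts the response in GemR siCont was lower than in Par for 5, including RABGGTB (-0.72) and TAF1D (-0.61), and higher for 1, HSPA8 (0.46). That was 18.5% and 3.70%, against 7.66% and 7.14% of all genes. Without GemR siCont vehicle replicate 1 the response was lower for 6 and higher for 2.

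Of 15 genes for snoRNP proteins and their assembly factors, 0 rose and 3 fell with thapsigargin in Par. They were NOP56 (-0.47), NHP2 (-0.38) and DKC1 (-0.16), a core box C/D protein, a box H/ACA protein and the pseudouridine synthase. The share that fell, 20%, was near the 19.7% of all genes, while 20.5% of all genes rose. In GemR siCont 0 rose and 6 fell (40%, against 15.8% of all genes), led by NOP58 (-0.57), DKC1 (-0.54) and ZNHIT6 (-0.52). Without GemR siCont vehicle replicate 1 the counts that fell were 6 in Par and 5 in GemR siCont. The Par count changed only through the shared estimate of spread, as that replicate is in neither Par group. The response in GemR siCont was lower than in Par for ZNHIT6 (-0.66), NOP58 (-0.51) and DKC1 (-0.38), 20% against 7.66% of all genes. The response in siSTIM1 was higher than in siCont for the same 3 genes, 20% against 1.5% of all genes. It was higher by 0.37 for NOP58, 0.37 for ZNHIT6 and 0.35 for DKC1. The GemR siCont libraries enter both differences with opposite sign, so the opposite signs of these 3 genes are not independent. Of 10 genes of nonsense-mediated decay, 1 fell in Par (SMG8, -0.27), 10% against 19.7% of all genes. In GemR siCont 5 fell, 50% against 15.8% of all genes, including UPF2 (-0.41), SMG9 (-0.38) and UPF3B (-0.36). None rose in either. With siSTIM1 against siCont and vehicle, 6 of the 10 were higher, led by the kinase SMG1 (0.66), SMG6 (0.47) and UPF2 (0.32), and 0 lower. Of all genes 20.9% were higher and 21.1% lower. Without GemR siCont vehicle replicate 1, 3 of the 10 were higher and 0 lower.

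MALAT1, at chr11:65497688-65506516, rose with thapsigargin in each background. It gave 1063, 1199 and 1133 normalized counts in Par with vehicle and 1841, 1922 and 1762 with thapsigargin, 1438, 1694 and 1687 against 4400, 4147 and 4618 in GemR siCont, and 2081, 2035 and 2017 against 3177, 3581 and 3692 in GemR siSTIM1. No treated library overlapped its vehicle group, and the GemR siCont thapsigargin libraries were the highest of all 18. The log2 fold changes were 0.70, 1.45 and 0.77 (each ± 0.08, SE). The response in GemR siCont exceeded that in Par by 0.75 ± 0.11 (adjusted p = 6.2e-05), and the response with siSTIM1 was lower than with siCont by -0.69 ± 0.11 (0.00062). Without GemR siCont vehicle replicate 1 these differences were 0.67 and -0.61.

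NEAT1, its neighbour at chr11:65422774-65445540, behaved otherwise. It gave 1852, 1763 and 1813 against 3355, 3055 and 2995 in Par, 2447, 2720 and 2729 against 3008, 2675 and 3132 in GemR siCont, and 4185, 4429 and 4398 against 8401, 7477 and 7043 in GemR siSTIM1. The siSTIM1 libraries were the highest in both treatments, and only in GemR siCont did the treated and vehicle libraries overlap. The log2 fold changes were 0.79 in Par, 0.16 in GemR siCont (not called, adjusted p = 0.11) and 0.81 in siSTIM1. The response in GemR siCont was lower than in Par by -0.63 ± 0.11 (adjusted p = 0.00031), and that with siSTIM1 was higher than with siCont by 0.66 ± 0.11 (0.00081), so both response differences of NEAT1 had the opposite sign to those of MALAT1. Without GemR siCont vehicle replicate 1 they were -0.69 and 0.71. With vehicle, both RNAs were higher in GemR than in Par (0.50 for MALAT1 and 0.54 for NEAT1) and higher with siSTIM1 than with siCont (0.35 and 0.72). With thapsigargin MALAT1 was higher in GemR than in Par by 1.25 and lower with siSTIM1 by -0.33, and NEAT1 did not differ by a call between GemR and Par (-0.09, adjusted p = 0.31) and was higher with siSTIM1 by 1.38.

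**Figure D4:**
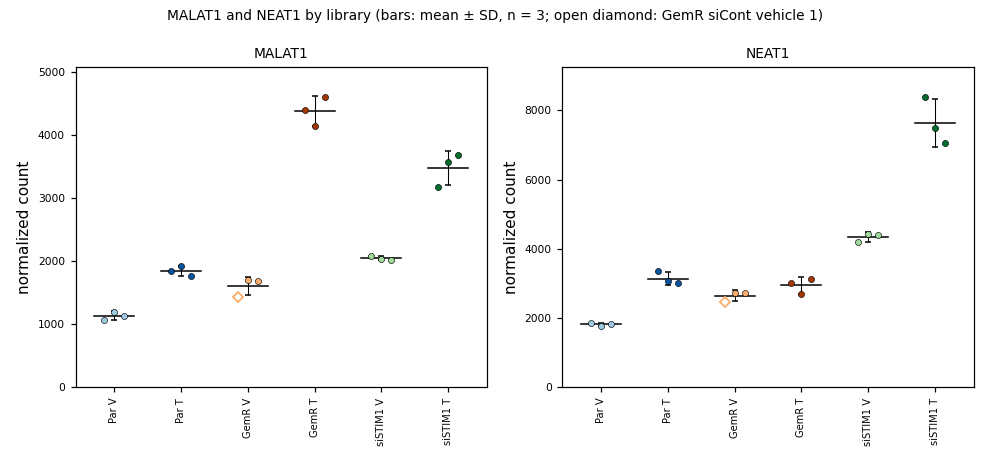
Normalized counts of MALAT1 and NEAT1 in each library by group (points, libraries; bars, group means with SD, n = 3; open diamond, GemR siCont vehicle replicate 1). MALAT1 peaks in GemR siCont with thapsigargin (mean 4388) and NEAT1 in GemR siSTIM1 with thapsigargin (mean 7640).

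Genes of paraspeckle proteins did not follow NEAT1. Of 13 tested, 0 rose and 4 fell with thapsigargin in Par, including TARDBP (-0.36), CPSF6 (-0.27) and DAZAP1 (-0.18), while NEAT1 rose by 0.79. The share that fell was 30.8%, against 19.7% of all genes. In GemR siCont RBM14 rose (0.43) and 5 fell, including CPSF6 (-0.32) and SFPQ (-0.27), the last an essential partner of NEAT1. There 38.5% fell, against 15.8% of all genes. With siSTIM1 and vehicle 3 were higher, including PSPC1 (0.49), and 3 lower, including HNRNPH3 (-0.44). These shares, 23.1% each way, were near the 20.9% and 21.1% of all genes. The gene counts do not separate transcript forms of NEAT1.

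Among the 327 other members, 58 rose and 41 fell with thapsigargin in Par (median 0.01), 30 rose and 20 fell in GemR siCont (-0.04) and 27 rose and 12 fell in GemR siSTIM1 (-0.01). These shares lay below the percentages of all genes given above. Without the 20 members that needed their highest group to reach the level limit, 56 of 307 rose and 40 fell in Par. These counts were 28 and 20 in GemR siCont and 26 and 12 in GemR siSTIM1. Of the 123 with a mean of at least 50, 43.1% were called in Par, where 44.0% of all genes at that level were, and 21.1% in GemR siCont, against 36.9%. LINC00365 gave 3.05, 7.42 and 17.6 normalized counts in Par with vehicle and 83.1, 68.0 and 80.1 with thapsigargin (3.18), 6.68, 1.75 and 4.74 against 37.6, 35.2 and 27.9 in GemR siCont, and 9.10, 17.3 and 13.9 against 62.3, 70.4 and 55.6 in GemR siSTIM1 (2.18). LINC00346, which RefSeq names PRECSIT, gave 4.06, 2.97 and 0.975 against 27.4, 19.4 and 16.6 in Par, 1.11, 4.38 and 5.68 against 110, 114 and 109 in GemR siCont (4.72), and 2.28, 4.07 and 11.9 against 53.4, 68.1 and 50.8 in siSTIM1 (3.27). Both were near the floor with vehicle and above it in every treated library, and the log2 values understate changes from such low counts. The treated libraries of LINC00365 overlapped between Par and siSTIM1, and those of LINC00346 were highest in GemR siCont.

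The promoter of LINC00365 is shown because it is the named thapsigargin-induced member whose promoter held the letters TGATGNAA, the core of the element bound by the stress factor ATF4 with its partners. The match begins 81 bases before the start and lies on the opposite strand, so that it reads TTTCATCA (capitals) on the strand of the gene (RefSeq, GRCh38.p14).
LINC00365, chr13:30108934-30108971, minus strand: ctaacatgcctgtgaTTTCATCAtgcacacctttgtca
The letters were found, on either strand of the 300-base promoter window, in 0 of 17 hosts, in 7 of 313 other members (2.24%) and in 3.62% of all 35116 promoters. LINC01468 and LINC00116, which did not rise with thapsigargin, also held a match.

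Of antisense members, DNAJC3-AS1 starts 214 bases from DNAJC3, the gene of a chaperone of the endoplasmic reticulum, with no shared exon. It gave 18.3, 5.94 and 12.7 normalized counts in Par with vehicle and 53.8, 63.7 and 67.6 with thapsigargin, 15.6, 19.3 and 30.3 against 102, 75.7 and 92.1 in GemR siCont, and 50.1, 39.6 and 30.8 against 197, 170 and 159 in siSTIM1. Every treated library was above its vehicle group, with log2 fold changes of 2.35, 2.04 and 2.12, and DNAJC3 itself rose by 1.79, 1.49 and 1.54. SLC7A11-AS1, whose exons share 1048 bases with the cystine transporter gene SLC7A11, rose in Par from 8.12, 2.97 and 10.7 to 98.2, 59.4 and 82.1 (3.40), and SLC7A11 rose by 1.65. JHDM1D-AS1 rose in GemR siCont from 6.68, 5.25 and 6.63 to 60.2, 58.1 and 66.4 (3.13), beside 3.01 for KDM7A, the demethylase gene it is named after. BRE-AS1 rose in siSTIM1 cells from 14.8, 13.2 and 11.9 to 146, 91.5 and 139 (3.12), while BRE was not called (0.05).

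Other antisense members fell in all 3 backgrounds. TMPO-AS1 gave 64.0, 80.2 and 71.2 against 20.8, 22.7 and 37.4 in Par (-1.42), with -1.05 in GemR siCont and -0.91 in siSTIM1, and TMPO, a lamina protein gene, fell by less (-0.41, -0.59 and -0.56). PRKCQ-AS1 fell by 1.07 in Par, where PRKCQ was not called (-0.01), and by 1.43 in GemR siCont, where PRKCQ fell (-0.65). SLC25A25-AS1 moved against SLC25A25, the gene of a calcium-regulated mitochondrial carrier: the antisense RNA gave 75.1, 92.0 and 119 against 40.6, 43.2 and 59.3 in Par (-0.98), -0.83 in GemR siCont and -0.71 in siSTIM1, while SLC25A25 rose by 1.43, 1.32 and 1.09. The siSTIM1 fall of SLC25A25-AS1 was lost without siSTIM1 vehicle replicate 3 (adjusted p = 0.0568) or thapsigargin replicate 2 (0.0748), and by edgeR (0.0555).

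For the 206 antisense genes whose partner was tested, the log2 change with thapsigargin in Par was correlated with that of the partner. The Pearson correlation across pairs was 0.33 (Spearman's rho 0.24). It was 0.56 (rho 0.41) in the 51 pairs with starts within 1 kb. In the 129 pairs with overlapping exons, where reads can be shared, it was 0.27 (rho 0.16). Pairs are not independent replicates, and the changes of both genes come from the same libraries. Both genes were called in 30 of these pairs, 21 in the same direction and 9 in opposite directions. In GemR siCont both were called in 17 pairs, 12 of them in the same direction, and in siSTIM1 in 11, 8 of them in the same direction.

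**Figure D5:**
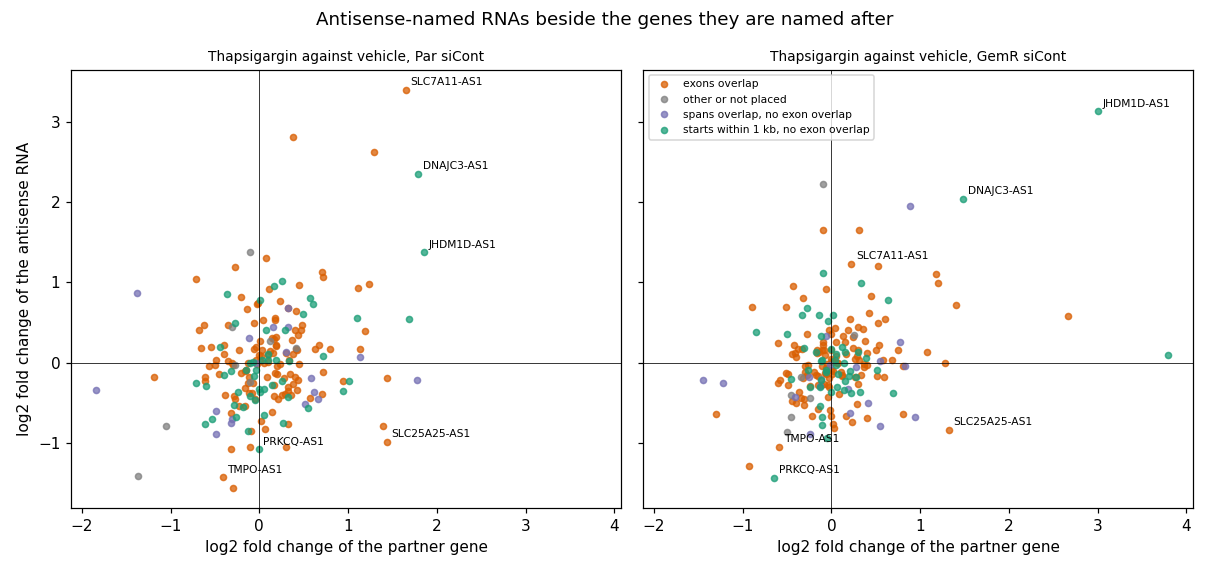
Log2 change with thapsigargin of antisense members (vertical axis) against that of the gene each is named after (horizontal axis), in Par (left) and GemR siCont (right), with one point for each of 206 pairs, coloured by how the genes of a pair lie to each other. In Par, DNAJC3-AS1 (2.35) lies with DNAJC3 (1.79), while SLC25A25-AS1 (-0.98) lies opposite SLC25A25 (1.43).

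The thapsigargin response was lower in GemR siCont than in Par for 18 of the 327 (5.50%) and higher for 8 (2.45%), against 7.66% and 7.14% of all genes. UBA6-AS1 gave 132, 135 and 119 against 264, 260 and 262 in Par and 163, 166 and 201 against 164, 191 and 163 in GemR siCont, a rise in Par with overlapping groups in GemR siCont, and a response difference of -1.05 (adjusted p = 7.0e-05). LINC00659 (-1.76) and LHX4-AS1 (-1.05; adjusted p = 0.0552 without Par thapsigargin replicate 2) were also lower, and LINC00346 (2.05), UNC5B-AS1 (1.88) and JHDM1D-AS1 (1.75) higher. The LINC00346 difference was lost without any 1 of 8 libraries, GemR siCont vehicle replicate 1 among them (1.55, adjusted p = 0.0674). It was also lost by edgeR (adjusted p = 0.121), by DESeq2 (0.0864) and by limma with a pseudocount of 0.5 (0.0759). THAP9-AS1, chosen after its values were seen because it holds SNORD143 and SNORD144, gave 337, 359 and 354 against 761, 674 and 768 in Par (1.07), 533, 448 and 479 against 496, 485 and 497 in GemR siCont (0.02, not called) and 422, 404 and 350 against 618, 602 and 521 in siSTIM1 (0.57), with a response difference of -1.04 ± 0.13 between GemR siCont and Par. LRRC75A-AS1, the snoRNA host at the highest counts of these, rose by 0.31 in Par and was not called in GemR siCont (-0.02), and its response difference was not called (-0.34, adjusted p = 0.12).

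Between siSTIM1 and siCont, the response was higher for 6 of the 327 (1.83%) and lower for 2 (0.612%), against 1.5% and 2.9% of all genes. That count of 8 became 3 to 5 when any of these libraries was left out: GemR siCont thapsigargin replicates 1, 2 and 3, siSTIM1 vehicle replicates 1 and 3, and siSTIM1 thapsigargin replicates 1 and 2. LINC00673 gave 408, 442 and 428 against 1015, 1091 and 957 in Par, 509, 528 and 514 against 596, 675 and 707 in GemR siCont and 298, 344 and 264 against 557, 620 and 614 in siSTIM1. The treated libraries exceeded the vehicle libraries in each background, and the response was larger with siSTIM1 than with siCont by 0.64 (adjusted p = 0.0067). RPARP-AS1 (0.79) and LINC00909 (0.74) were higher and JHDM1D-AS1 (-1.46) lower, and each of these 3 calls was lost when 1 of several libraries was left out: 7 libraries for RPARP-AS1 (adjusted p up to 0.0797, and 0.0733 without GemR siCont vehicle replicate 1), 9 for LINC00909 (up to 0.0911) and 9 for JHDM1D-AS1 (up to 0.0876). By edgeR and DESeq2 the calls of RPARP-AS1 (adjusted p = 0.0533 and 0.0546) and JHDM1D-AS1 (0.0870 and 0.0861) were also lost.

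With vehicle, 73 of the 327 other members were higher in GemR than in Par (22.3%, against 18.1% of all genes) and 18 lower (5.50%, against 20.1%), with a median of 0.25, against 0.004 over all genes. With thapsigargin 81 were higher (24.8%, against 23.2%) and 32 lower (9.79%, against 25%), with a median of 0.19. Without the 20 members that needed their highest group to reach the level limit, 72 of 307 were higher and 18 lower with vehicle. With thapsigargin these counts were 78 and 30. LINC01468, which RefSeq names LNCAROD, gave 15.2, 2.97 and 5.85 in Par and 94.6, 83.2 and 106 in GemR with vehicle, and 11.3, 4.32 and 8.32 against 93.1, 78.4 and 105 with thapsigargin, a difference of 3.64 and 3.45. TMEM9B-AS1, at chr11:8964675-8977527, gave 14.2, 17.8 and 16.6 against 54.6, 63.9 and 70.1 with vehicle (1.89), and its partner TMEM9B was higher by 1.53. SBF2-AS1, at chr11:9758292-9811335 on the same chromosome arm, was higher by 1.37 ± 0.15 with vehicle and by 1.34 with thapsigargin. Those 2 were the called members among the 4 within the first 12 Mb of chromosome 11, a window chosen after the values were seen; TOLLIP-AS1 (-0.72) and ZBED5-AS1 (0.03) were not called, and 3 of the other 10 members on the chromosome were higher and 1 lower.

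UNC5B-AS1 was higher in GemR than in Par with thapsigargin (2.58), at 67.7, 62.5 and 54.6 against 9.44, 6.47 and 13.5, and its partner UNC5B, a netrin receptor gene, by 0.79. LINC00941 was lower in GemR with thapsigargin (-1.27), at 380, 435 and 418 against 1047, 980 and 957. With vehicle, SH3RF3-AS1 was lower (-1.55), as was SH3RF3 (-1.54), along with BBOX1-AS1 (-1.39) and LINC00960 (-0.94). Both genes were called in 30 antisense pairs with vehicle, 24 in the same direction, and in 40 with thapsigargin, 30 in the same direction. For siSTIM1 against siCont the Pearson correlation across the 206 pairs was 0.10 with vehicle and 0.20 with thapsigargin (Spearman's rho 0.09 and 0.13). Both genes were called in 27 pairs with vehicle (17 in the same direction, 10 in opposite ones) and in 25 with thapsigargin (17 and 8).

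With siSTIM1 and vehicle, 70 of the 327 were higher than with siCont (21.4%, against 20.9% of all genes) and 14 lower (4.28%, against 21.1%), with a median of 0.23. With thapsigargin 69 were higher (21.1%, against 17.7%) and 12 lower (3.67%, against 18.9%), with a median of 0.29. The shares that were higher with vehicle were thus near those of all genes. Without the 20 members that needed their highest group to reach the level limit, 65 of 307 were higher and 14 lower with vehicle. With thapsigargin these counts were 67 and 12. Among those higher with vehicle were LOXL1-AS1 (1.61) and SH3RF3-AS1 (1.22); LOXL1, a crosslinking enzyme gene of the matrix, was higher by 1.39 and SH3RF3 by 0.67. PRR34-AS1 (-1.10) and LINC00673 (-0.78) were lower, the latter at 298, 344 and 264 against 509, 528 and 514. Lower also were LINC00540 (-0.63; adjusted p = 0.111 without siCont vehicle replicate 1 and 0.128 without siSTIM1 vehicle replicate 1) and LINC00473 (-0.54; 0.0551 without siSTIM1 vehicle replicate 3). The LINC00473 call was also lost by edgeR (adjusted p = 0.0587) and DESeq2 (0.0993). With thapsigargin BRE-AS1 was higher (1.77; BRE 0.46) and LINC00659 was higher (1.52), while UNC5B-AS1 was lower (-1.56), at 26.7, 16.4 and 18.5 against 67.7, 62.5 and 54.6, beside -0.92 for UNC5B. LINC00880 was lower by -0.98, a call lost without siCont thapsigargin replicate 3 (adjusted p = 0.0521) or siSTIM1 thapsigargin replicate 2 (0.0553).

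The authors' deposited tables of the thapsigargin comparisons, made with DESeq2, called 7 hosts higher and 2 lower in Par, 0 and 2 in GemR siCont, and 5 and 1 in siSTIM1. Of the other members they called 49 higher and 30 lower, 27 and 19, and 26 and 12. All 88 members called both in the authors' deposited table and here had the same sign in Par, as did all 46 in GemR siCont and all 42 in siSTIM1. These are the same libraries and no independent evidence.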

How the data were processed

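RNA of 18 libraries in 6 groups of 3 was measured by mRNA sequencing (TruSeq RNA v2, 500 ng RNA), per the labels' protocols. The submitters' processing notes name hg38, STAR 2.6.0c, HTSeq 0.11.1 and DESeq2; no source used here gives the annotation or strand setting of the counting. The deposited signal values are normalized counts: the authors scaled the reads of each gene by 1 factor in each library. Every positive value was a whole multiple of its library's smallest step, within 0.01, so 100% of values gave whole reads. The authors' deposited tables give log2 fold changes, p-values, mean normalized counts and a Wald score, of which the log2 fold changes and adjusted p-values were used.

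The members and gene lists were chosen with earlier results of these data known. log2(normalized count + 1) was fitted with limma 3.58.1 (R 4.3.3, trended prior) over all 18 libraries and 13096 genes (mean 10 or more), with 12 residual degrees of freedom. There were 7 pairwise contrasts and 2 differences between responses, each with Benjamini-Hochberg adjustment over all genes and a call at 0.05. Fold changes are on this log2 scale. Named members were all hosts, MALAT1, NEAT1 and, in each pairwise contrast, up to 5 other calls each way with the largest change, groups that do not overlap and a mean of at least 50 in 1 group, or up to 3 each way in the response differences. Of lists, up to 3 called genes are named. edgeR 4.0.16 and DESeq2 1.42.0 were run on the reads of 17 libraries as alternatives. For thapsigargin in Par they called 5204 and 5142 genes, against 5253 by limma. GemR siSTIM1 vehicle replicate 3 was left out of those because its step was too near 1. Other alternatives were other pseudocounts (0.5 and 5), no minimum or a minimum mean of 50, median centring, quantile normalization, other priors, only the compared libraries, a replicate block, and libraries left out. The fit was tested on simulated data. GENCODE 29 and RefSeq (GRCh38.p14) gave positions, snoRNAs and promoters. All 348 members matched RefSeq and 335 GENCODE, and 4 hosts (SNHG6, SNHG9, SNHG15 and SNHG25) had no promoter entry. Some genes that the naming rule takes are not reported here.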

Additional observations from a re-analysis of the deposited data

Results flagged for a closer look

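The thapsigargin response differed between GemR siCont and Par, by limma's test of the difference itself, for 14 of the genes named: EPB41L4A-AS1 (-1.08 on the log2 scale), SNHG8 (-1.0), SNHG20 (-0.77), ZFAS1 (-0.65), SNHG1 (-0.64), GAS5 (-0.47), NEAT1 (-0.63), LINC00659 (-1.76), UBA6-AS1 (-1.05) and LHX4-AS1 (-1.05) had a lower response in GemR siCont, and MALAT1 (0.75), LINC00346 (2.05), UNC5B-AS1 (1.88) and JHDM1D-AS1 (1.75) a higher one. The response differed between GemR siSTIM1 and GemR siCont for 7: MALAT1 (-0.69) and JHDM1D-AS1 (-1.46) were lower with siSTIM1, and NEAT1 (0.66), SNHG8 (0.82), RPARP-AS1 (0.79), LINC00909 (0.74) and LINC00673 (0.64) higher. The GemR siCont libraries enter both differences with opposite sign, so the opposite signs of MALAT1, NEAT1, SNHG8 and JHDM1D-AS1 in the 2 are not independent. With 3 libraries a group, no formal test for outlying libraries was run, but each library was left out in turn. Some calls were lost without 1 library. Between GemR siCont and Par these were GAS5, LINC00346 and LHX4-AS1. Between siSTIM1 and siCont they were SNHG8, RPARP-AS1, LINC00909 and JHDM1D-AS1.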

How the results depend on the processing

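None of the 143 called values of named members changed sign under an alternative; hosts that were not called were not covered by this count. Of the 143, 118 were called under every setting; of 1828 values under alternatives other than single left-out libraries 1773 stayed called and 55 did not, and of 984 with 1 library left out 889 did and 95 did not. Counts of called snoRNA hosts moved as follows. Of the 9 in Par with thapsigargin, there were 15 with only the compared libraries and 15 without the 2 libraries that follow transcript length. The share of all genes called moved too, from 40.1% to 51.1% and 52.6% in these 2 runs. The 2 in GemR siCont became 1 with no minimum, 4 with quantile normalization, 1 without trend, 1 with only the compared libraries and 8 without the 2 libraries, and 1 to 7 with a library left out. The 5 in siSTIM1 ranged from 5 to 8 with a library left out. The 2 of GemR against Par with vehicle became 1 without trend, 0 by limma with only the compared libraries and 5 without the 2 libraries, and 1 to 5 with a library left out. The 9 of siSTIM1 against siCont with vehicle became 3 with only the compared libraries, and the 4 with thapsigargin became 9 without the 2 libraries and 7 without GemR siCont vehicle replicate 1, a library of neither group compared. The single host with a response difference between siSTIM1 and siCont became 0 with no minimum, without trend, with only the compared libraries and by edgeR (adjusted p of SNHG8 0.0611), 2 with quantile normalization and 0 to 2 with a library left out. Of the other members, a minimum mean of 50, which tests fewer of them, left 53 of 99 in Par, 28 of 50 in GemR siCont, 24 of 39 in siSTIM1, 49 of 91 and 64 of 113 for GemR against Par with vehicle and thapsigargin, and 49 of 84 and 48 of 81 for siSTIM1 against siCont. With only the compared libraries the 91 became 51. The response difference between GemR siCont and Par was called for 46 in place of 26 without the 2 libraries. Of all genes 29.4% were called there, in place of 14.8%. The 8 of the difference between siSTIM1 and siCont became 5 with no minimum, 4 with only the compared libraries, 4 by edgeR and 5 by DESeq2, and 3 to 9 with a library left out. Where the construction of an alternative does not give the cause, the cause was not tested.

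The labels do not say whether equal replicate numbers mark paired samples, and the main fit did not pair them. Each library's deviations from its group mean, gene by gene on the log2 scale, were correlated between same-numbered libraries of different groups. These correlations of deviations ran from -0.18 to 0.49 for number 1, -0.17 to 0.14 for number 2 and -0.03 to 0.29 for number 3. The medians by number were -0.001, -0.019 and 0.077, and 9 of 18 libraries correlated best with their own number. These values do not settle whether the samples are paired. With a replicate block the hosts with a response difference between siSTIM1 and siCont were 2 in place of 1. Members with few reads carry large errors, so a missing call there is not evidence of no change.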
